A study of Mus musculus with 4 samples.

Results

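The markers examined here are 10 genes of Kupffer cells and other macrophages: Adgre1, Clec4f, Cd5l, Vsig4, Marco, Cd68, Lyz2, Csf1r, C1qa and Ccl2. They were chosen by name, with earlier results of these data known. Every probe of the mouse array that carried one of these names was taken, which gave 14 of 41174 probes. The study asked how galanin-like peptide (GALP, made by neurons of the hypothalamus) given through the nose changes gene expression in the liver of male mice with diet-induced obesity (DIO). All mice were C57BL/6J, bought at 8 weeks of age, kept on a high-fat diet over 14 weeks, and weighed at least 40 g. The treated mice received 1 nmol porcine GALP in saline with 5% α-cyclodextrin, 2 µL into the nose once a day for 11 days, and the control mice received saline, for which the labels do not state the cyclodextrin. Liver RNA of 4 GALP mice with greater weight loss was pooled (greater-loss pool), as was that of 4 GALP mice with less weight loss (less-loss pool), and each pool was hybridised against RNA pooled from 8 saline mice.

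Each GALP pool was measured on 2 dual-colour arrays with the dyes exchanged, so 4 arrays on 1 slide hold 2 GALP pools and 1 control pool. The arrays of a pool carry the same extracts and were averaged, and a mean ± SD is over n = 2 pools. The control pool is 1 sample, and its difference from other saline mice is part of every ratio below. Between 40.5% and 46.7% of spots were well above background in each channel, and no spot was saturated. On the array of the less-loss pool with GALP in Cy3, 259 probes with signal (1.65%) read over 2 times as bright in both channels as on any other array, compared with 13 to 58 on each of the other 3 arrays, and no probe of the 10 markers was among them. All values are log2 ratios of GALP over control unless a fold or a processed signal (the scanner's background-subtracted and dye-normalized brightness, in arbitrary units) is named.

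Kupffer cells are the macrophages that live in the liver sinusoids, where they clear particles, bacteria and dying red cells from portal blood. They arise largely before birth and keep their number by local division, and monocytes from the blood can add to them or form other liver macrophages, as in obesity. CSF1 acting on its receptor CSF1R keeps macrophages alive, and the chemokine CCL2 draws monocytes that carry the receptor CCR2.

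GALP livers gave more signal for Marco in both pools, the only marker that met the rule of the methods in each of them. Marco, a scavenger receptor that binds bacteria and modified lipoproteins, was 2.06-fold of control in the greater-loss pool and 1.62-fold in the less-loss pool. Cd68, Lyz2 and Ccl2 met the rule in the greater-loss pool alone, at 1.59-fold, 1.65-fold and 1.64-fold. Adgre1 was close to 1.34-fold in both pools and met the rule in neither. The Kupffer cell receptors Clec4f and Vsig4, the secreted protein gene Cd5l and the complement gene C1qa lay between 0.842-fold and 1.20-fold in each pool.

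**Figure D1:**
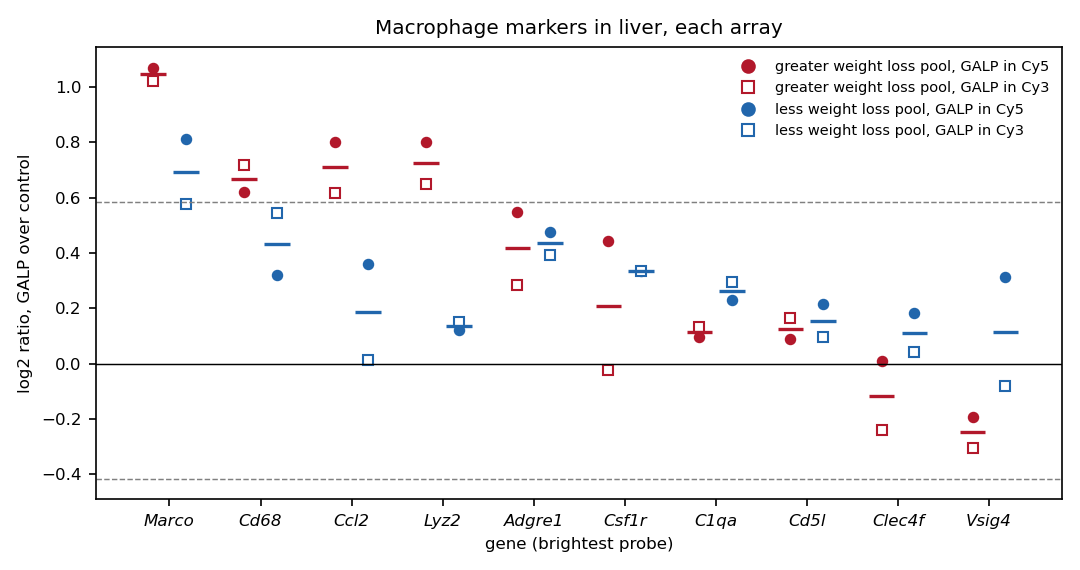
Log2 ratio of GALP over control for the brightest probe of each of the 10 markers, on each of the 4 arrays (filled circles, GALP in Cy5; open squares, GALP in Cy3), with bars at the mean of each pool and dashed lines at 1.5-fold and 0.75-fold. Marco lies at 1.07 and 1.02 in the greater-loss pool and at 0.81 and 0.58 in the other, and Vsig4 and Clec4f straddle 0.

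The methods set a fold over 1.5 or under 0.75 and a p-value of the scanner software under 0.01. They do not give the number of arrays on which the p-value must hold, and it was required here on every array of the pools concerned. That p-value compares the labelled extracts on 1 array and says nothing about mice. By this rule 1 of 10 markers was higher in both pools, where 0.0585% of all probes and 0.153% of the 15713 probes with signal were. In the greater-loss pool 4 of 10 markers were called higher, beside 0.297% of all probes and 0.681% of those with signal. In the less-loss pool 1 of 10 was called higher, beside 0.234% of all probes and 0.56% of those with signal. No marker was called lower in either pool. Because the markers were chosen with earlier results known, these shares and those below are descriptions and not tests. Probes with signal are those that every array showed well above background on 1 side or both. The brightest probe of each of the 10 markers was well above background in all 8 channels, so no marker entered through 1 side alone.

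Across the pools, limma with Benjamini-Hochberg adjustment over 41037 probes called no marker and no probe at all (0.0%), while without adjustment 2049 higher and 2710 lower probes had p under 0.05. The adjusted p of the brightest probes ran from 0.374 to 1.0. Unadjusted limma p-values were under 0.05 and the ratio higher for 2 of 10 markers, Adgre1 and Cd5l, beside 4.99% of all probes. With 2 pools an exact sign-flip test of a single gene cannot go below p = 0.5.

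The ratio was above 0 on all 4 arrays for 7 of 10 markers, against 11.4% of the probes with signal. It was above 0 on both arrays for 7 of 10 markers in the greater-loss pool (24.5% of probes with signal) and for 9 of 10 in the less-loss pool (22.0%). The median over the 10 markers was 0.31 in the greater-loss pool and 0.225 in the less-loss pool, whereas the medians over all probes with signal were -0.02 and -0.03. The array holds RNA of whole liver, so more cells of a type and more RNA per cell cannot be told apart.

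The probes of the 4 markers that met the rule are 60 bases long, and their first 30 bases are shown, 5′ to 3′, so that the transcript measured can be recognised. Lyz2 is shown for both of its probes because they differ in the result. Positions are those of the deposited files on mouse build mm9. They are chr1:122371077-122371096 on the minus strand for Marco, which covers part of that probe, and chr11:69478314-69478373 on the minus strand for Cd68. They are chr11:81850650-81850709 on the plus strand for Ccl2, and chr10:116714450-116714509 for the brighter and chr10:116719175-116719234 for the dimmer Lyz2 probe, both on the minus strand. Exon and UTR annotation of that build was not used here.
Marco: gagcccgagaggtcatcagtgtgtccccag
Cd68: ttgggccaaagcttctgctgtggaaatgca
Lyz2, brighter probe: cttaagttccttcattcacactaactctga
Lyz2, dimmer probe: aacgttgtgagtttgccagaactctgaaaa
Ccl2: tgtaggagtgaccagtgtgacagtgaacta

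Among receptors that take up particles, Marco stood apart from Clec4f and Vsig4. The control pool gave Marco signals of 2267, 1975, 2314 and 2251 on the 4 arrays. The GALP greater-loss pool gave 4763 and 4007, and the less-loss pool gave 4061 and 3358. The lowest GALP reading was thus above the highest control reading.

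Marco had log2 ratios of 1.07 and 1.02 in the greater-loss pool and of 0.81 and 0.58 in the other, with a mean of 0.87 ± 0.25 (SD, n = 2 pools) and a limma SE of 0.15. The limma adjusted p was 0.436. The software p-values were 2.25e-06 and 5.43e-06 on the arrays of the greater-loss pool, and 0.000187 and 0.00623 on those of the less-loss pool. The call in both pools depended on settings close to the fold threshold. With normexp background correction and loess the fold in the less-loss pool was 1.47, and on its array with GALP in Cy3 alone it was 1.49, and the call was lost in each case.

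**Figure D2:**
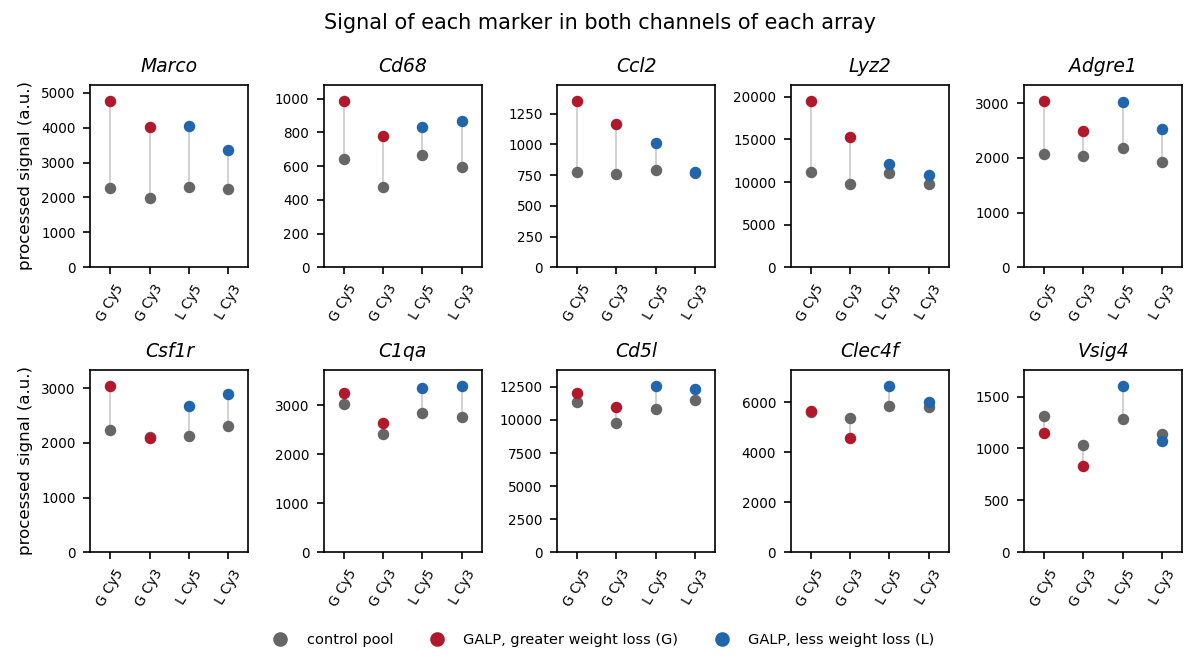
Processed signal (arbitrary units, linear axis from 0) of the brightest probe of each marker on the 4 arrays, labelled by weight loss pool (G, greater; L, less) and by the dye of the GALP extract; grey points are the control pool and coloured points the GALP pool of the same array. Marco reads from 3358 to 4763 in GALP and from 1975 to 2314 in control, whereas the Clec4f points of both kinds overlap.

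Clec4f, a C-type lectin found in mice almost solely on Kupffer cells, had log2 ratios of 0.01 and -0.24 in the greater-loss pool and 0.18 and 0.04 in the other. Its control signals of 5379 to 5852 lay within the GALP range of 4551 to 6639. The mean was 0.00 ± 0.16 (SD, n = 2 pools), with a limma adjusted p of 1.0. Its probe lies at chr6:83595281-83595339 on the minus strand.

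Vsig4, a complement receptor of resident macrophages, gave -0.19 and -0.30 in the greater-loss pool and 0.31 and -0.08 in the other. The mean was -0.07 ± 0.26 (SD, n = 2 pools), with a limma adjusted p of 0.985. The pools differed in sign and the arrays of the less-loss pool did too. The probe is at chrX:93443157-93443216 on the minus strand.

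Of the general macrophage genes, Cd68 encodes a lysosomal glycoprotein and Lyz2 the lysozyme of myeloid cells. Cd68 had log2 ratios of 0.62 and 0.72 in the greater-loss pool and 0.32 and 0.54 in the other. All 4 Cd68 ratios were above 0, and its GALP signals of 779 to 985 lay above its control signals of 473 to 666. The mean was 0.55 ± 0.17 (SD, n = 2 pools), and the limma adjusted p was 0.45. On the arrays of the less-loss pool the software p-values were 0.122 and 0.0108. With normexp and loess the Cd68 fold in the greater-loss pool was 1.44, and the call was lost.

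The brighter Lyz2 probe gave 0.80 and 0.65 in the greater-loss pool and 0.12 and 0.15 in the other. Its control signals ran from 9736 to 11200.0, and its GALP signals were 19498 and 15286 in the first pool and 12077 and 10817 in the second. The greater-loss pool therefore lay above all control readings, while the ranges of the other pool and control overlapped. The mean was 0.43 ± 0.42 (SD, n = 2 pools), and the limma adjusted p was 0.702. The dimmer Lyz2 probe, with control signals of 132 to 161, gave 0.78 and 0.21 in the first pool and 0.03 and -0.05 in the second, and met the rule in neither. With both probes averaged, Lyz2 lost its call. Lyz2 has a near-identical neighbour, Lyz1, whose probe gave 0.65 and 0.60 and then 0.10 and -0.03. Their transcripts may bind to each other's probes, so these values are not assigned to 1 of the pair with certainty.

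Adgre1 encodes F4/80, the surface receptor used to stain mouse macrophages. Its brighter probe at chr17:57622843-57622902 gave 0.55 and 0.29 in the greater-loss pool and 0.48 and 0.39 in the other. All 4 GALP signals, from 2485 to 3041, were above the control signals of 1931 to 2178. The mean was 0.43 ± 0.01 (SD, n = 2 pools), the closest pair of pools among the markers, with a limma adjusted p of 0.374. With normexp and loess the limma adjusted p was 0.0371, while the fold stayed at 1.36 and 1.37. The other Adgre1 probe was not well above background in any channel and carries no information.

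Csf1r, the receptor for CSF1 and IL-34, had 3 probes on chromosome 18. The brightest gave 0.44 and -0.02 in the greater-loss pool and 0.34 and 0.33 in the other. Its mean was 0.27 ± 0.09 (SD, n = 2 pools), with a limma adjusted p of 0.464, and the arrays of the first pool differed by 0.47. The next Csf1r probe gave 0.63, 0.27, 0.47 and 0.24 in the same order, above 0 on every array, with a mean of 0.40 ± 0.07 and a limma adjusted p of 0.384. The dimmest stood well above background only once in 4 GALP readings and in 0 of 4 control readings, and no fold was taken from it.

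The secreted products C1qa, a chain of the complement component C1q, and Cd5l, a scavenger protein released by macrophages, had small ratios. C1qa gave 0.10 and 0.13 in the greater-loss pool and 0.23 and 0.29 in the other, with a mean of 0.19 ± 0.10 (SD, n = 2 pools) and a limma adjusted p of 0.583. Cd5l gave 0.09, 0.16, 0.21 and 0.10 in the same order, with a mean of 0.14 ± 0.02 and a limma adjusted p of 0.386. Both were above 0 on each array, and neither had a software p-value under 0.01 on any. With normexp and loess C1qa stood at -0.10 in the greater-loss pool. The probes are at chr4:136452409-136452468 on the minus strand and chr3:87174823-87174882 on the plus strand.

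Ccl2, the chemokine that attracts monocytes and is made by hepatocytes, stellate cells and endothelium as well as macrophages, is the one marker with repeated spots. Its probe was printed 10 times, and 9, 9, 10 and 9 spots were free of an outlier mark. In the greater-loss pool the spots ran from 0.76 to 0.86 (median 0.80) with GALP in Cy5 and from 0.54 to 0.72 (median 0.61) with GALP in Cy3. In the less-loss pool they ran from 0.27 to 0.52 (median 0.33) and from -0.04 to 0.08 (median 0.00). The spots of the first pool did not overlap those of the second.

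The SD between Ccl2 spots of an array was 0.03, 0.06, 0.08 and 0.04, which covers the error of printing and scanning alone. The difference between arrays of the same pool was larger, at 0.18 and 0.35. In the greater-loss pool the software p-value was under 0.01 for 9 of 9 and 8 of 9 spots, and in the other pool for no spot. The mean was 0.45 ± 0.37 (SD, n = 2 pools), with a limma adjusted p of 0.702. With normexp and loess the fold in the first pool was 1.43, and the call was lost.

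**Figure D3:**
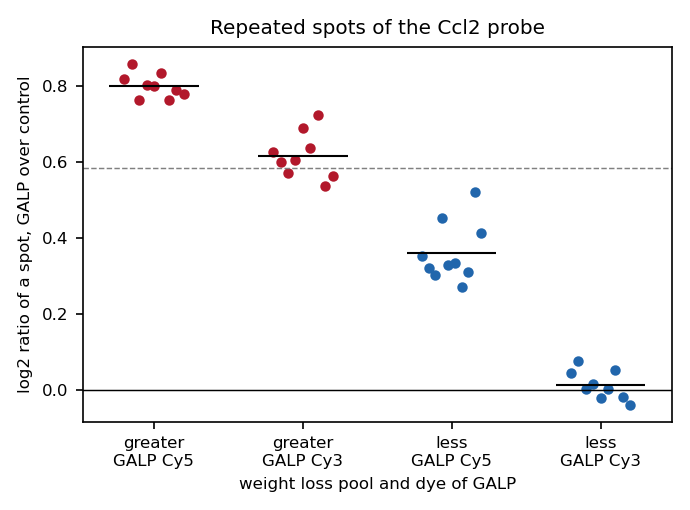
Log2 ratio of GALP over control for each repeated spot of the Ccl2 probe on the 4 arrays (9, 9, 10 and 9 spots), with black bars at the array mean and a dashed line at 1.5-fold. The spots of the greater-loss pool lie between 0.54 and 0.86 and those of the less-loss pool between -0.04 and 0.52.

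The markers differed between the GALP pools in both directions. The difference of the pool ratios, greater minus less weight loss, was positive for 4 of 10 markers, with a median of -0.02. It was 0.589 for Lyz2, 0.52 for Ccl2, 0.35 for Marco and 0.24 for Cd68, and -0.36 for Vsig4 and -0.23 for Clec4f. Adgre1 and Cd5l differed by -0.02 and -0.03. Each side is 1 pool, so these differences have no replicate check and no test. Over all probes with signal, arrays of the same pool differed by a median of 0.19 in the greater-loss pool and 0.23 in the other, and by under 0.592 and 0.701 for 90% of them. The SD between the pools was under 0.25 for 90% of the probes with signal, and 3 of the 10 markers were above that value, Lyz2 at 0.42, Ccl2 at 0.37 and Vsig4 at 0.26. The ratios also moved with the dye: with GALP in Cy5 they were higher than with GALP in Cy3 for 7 of 10 markers in each pool. This direction was not particular to the markers. The medians over all probes with signal were 0.02 with GALP in Cy5 and -0.05 with GALP in Cy3 in the greater-loss pool. They were 0.02 and -0.07 in the other.

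Promoter sequences of the RefSeq table (GRCm38.p6) were held for 6 of the 10 markers, Marco, Cd5l, Clec4f, Lyz2, Cd68 and Vsig4. The 250 bases before the annotated start were searched on both strands for GAGGAA, a core of sites bound by the macrophage factor PU.1, and for TGANTCA, a site of AP-1, which do not share letters where found. GAGGAA or its reverse complement was present in 4 of these 6 promoters, compared with 23.3% of 32851 promoters. TGANTCA was present in Cd68 alone, compared with 6.75% of promoters. The matching stretches are shown as 30 bases on the strand of the gene, with the match in capitals, in the order chr1:120505153-120505182, chr11:69666378-69666407, chr11:69666301-69666330, chr11:69666176-69666205, chr3:87357803-87357832, chrX:96293576-96293605 and chrX:96293474-96293503. Marco, which was called in both pools, and Vsig4, which was called in neither, both hold the core.
Marco, PU.1 core: tgaagtgggtcaGAGGAAgatttcctgggg
Cd68, PU.1 core: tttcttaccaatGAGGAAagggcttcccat
Cd68, AP-1, farther from the start: taagttccgtgTGAGTCAgctgcctcattc
Cd68, AP-1, nearer the start: gctgaggtgtcTGAGTCAggtttggggtgg
Cd5l, PU.1 core: cagtcacctcccTTCCTCtggccatgctga
Vsig4, PU.1 core, farther from the start: tcctagtagaatGAGGAAcagtttcaccca
Vsig4, PU.1 core, nearer the start: ggggaagtgtgtGAGGAAactaggattctg

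Other genes of the same cells were read from lists written by name. Of 15 further Kupffer cell genes, 13 had signal, with medians of 0.16 in the greater-loss pool and 0.04 in the other. In each pool 10 of these 13 had a ratio above 0. The others in the greater-loss pool were Timd4, Folr2 and Fcna, at -0.27, -0.27 and -0.14. In the less-loss pool these genes gave -0.05, 0.04 and -0.17. Only Spic, the transcription factor of macrophages that recycle iron from red cells, met the rule. Its dimmer probe gave 1.08, 0.72, 0.82 and 0.87 and was called higher in both pools, and its brighter probe gave 0.76, 0.90, 0.68 and 0.46 and was called in the greater-loss pool. The Spic folds under normexp and loess were 1.17 and 1.16 for the dimmer probe (1.86 and 1.79 before) and 1.27 and 1.12 for the brighter, and both calls were lost. The brightest of this list, the sterol receptor gene Nr1h3, had pool ratios of 0.11 and 0.02. C6, a terminal complement gene, had 0.21 and -0.60. Cd163, the haemoglobin scavenger receptor, had 0.32 and 0.43, with arrays of the first pool at 0.91 and -0.27. It stood above background in 3 of 4 GALP readings and 2 of 4 control readings. The medians of this list were 0.07 and 0.01 under normexp and loess.

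Of 20 pan-macrophage genes, 18 had signal and 16 and 17 of these had a pool ratio above 0, with medians of 0.27 and 0.29, but none met the rule. Ctss, a lysosomal protease, gave pool ratios of 0.50 and 0.34, Mpeg1, a pore-forming protein of phagosomes, gave 0.33 and 0.31, and the Fc receptor gene Fcgr3 gave 0.34 and 0.46. These 3 genes were above 0 on all 4 arrays. The medians of this list were 0.13 and 0.17 under normexp and loess.

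Genes of monocytes and recruited macrophages had a median of 0.47 in the greater-loss pool and 0.30 in the other, over 13 of 16 genes with signal. In the first pool 5 of them were called higher by at least 1 probe, and in the second none. Gpnmb, a glycoprotein of lipid-loaded macrophages, had the largest ratio of the list, at 3.09 and 2.69 in the greater-loss pool and 1.49 and 0.40 in the other. These values are from its brightest probe, with control signals of 68.5 to 109.9. Its other probes stood above background in at most 1 of 4 readings on either side, and no fold was taken from them. The lipid receptor gene Trem2 gave 1.15 and 1.16, then 0.51 and 0.52. Under normexp and loess, Gpnmb was 2.45-fold of control in the first pool and 1.16-fold in the second, in place of 7.41-fold and 1.92-fold.

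Lgals3, a galactoside-binding lectin, gave pool ratios of 1.17 and 0.51, the integrin gene Itgax 0.83 and 0.42, and the chitinase-like gene Chil3 1.22 and 0.30. Itgax lost its call with normexp and loess (1.21-fold), while the other 4 genes kept theirs by the brightest probe, and the medians of the list became 0.25 and 0.16. A dimmer Trem2 probe, called at 2.22-fold in the greater-loss pool, lost its call at 1.23-fold. In the less-loss pool that probe went from 1.30-fold to 0.994-fold. The brightest genes of the list, Spp1 and the monocyte antigen gene Ly6c2, gave -0.18 and 0.37 and then 0.14 and 0.15. Ccr2, the receptor of CCL2, and the integrin gene Itgam were without signal.

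Of 22 activation and cytokine genes, 11 had signal, and the medians were 0.51 and 0.14. A pool ratio above 0 was seen for 7 of the 11 in the greater-loss pool and for 6 in the other. The interleukin gene Il1b had the lowest mean, with pool ratios of -0.76 and -0.20. In the greater-loss pool 5 were called higher. They were the chemokine genes Ccl5, Ccl4, Ccl7 and Cxcl10, at pool ratios of 1.53, 1.17, 0.99 and 0.70, and the receptor gene Tlr2, at 0.69. In the less-loss pool their ratios were 0.55, 0.51, -0.44, 0.44 and 0.35 in the same order. That pool had 1 gene called higher, Il1rn, the interleukin 1 receptor antagonist, at 0.98, and 1 called lower, Retnla, a marker of alternative activation, at -0.97. With normexp and loess 1 of the 5 calls in the greater-loss pool was kept, that of Ccl5 at 2.21-fold, while Ccl4, Ccl7, Cxcl10 and Tlr2 stood at 1.26-fold, 1.21-fold, 1.40-fold and 1.17-fold. Il1rn at 1.49-fold and Retnla at 0.864-fold lost their calls in the less-loss pool too, and the medians of the list were 0.14 and 0.07. The brightest genes, Nfkbia and Il18, lay between -0.15 and -0.01. Ccl7 and Retnla stood above background in 3 of 4 GALP readings and in every control reading. Tnf, Il6 and Nos2 were among the 10 without signal, and Arg1 lacked a value on 1 array. Of the genes for CSF1R ligands and CCL2 receptors, 4 of 6 had signal, with medians of 0.37 and -0.02, and none met the rule.

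**Figure D4:**
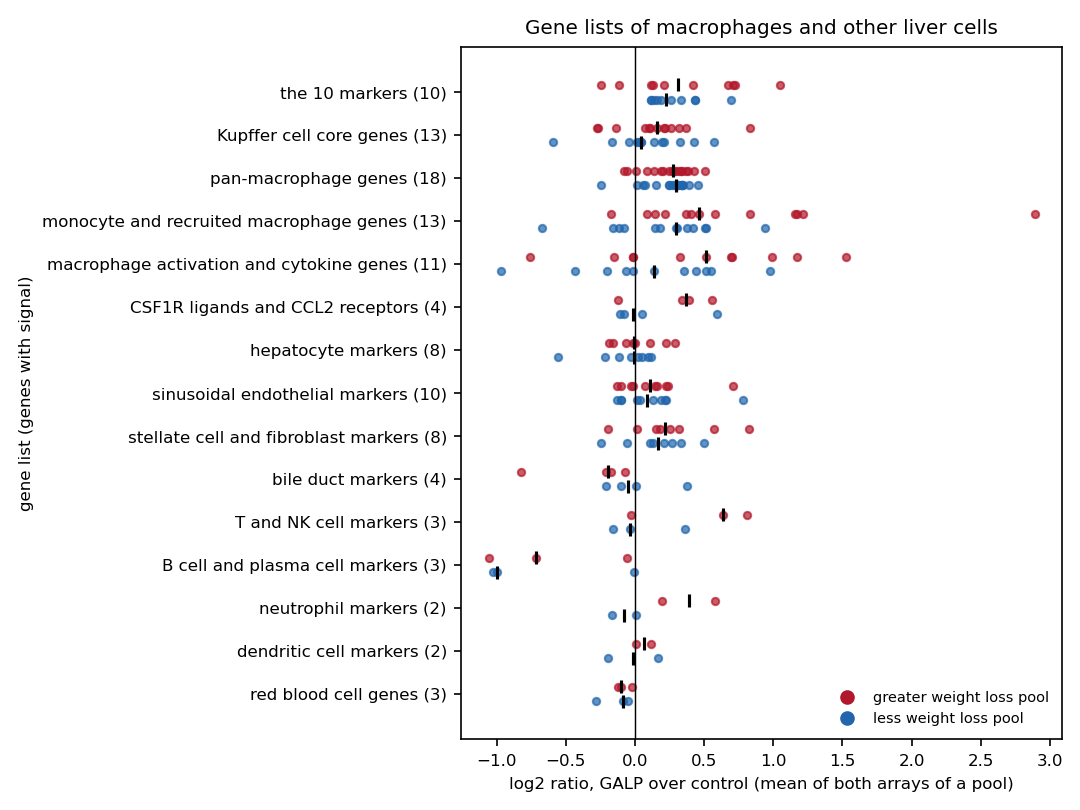
Log2 ratio of GALP over control (mean of both arrays of a pool) for the brightest probe of each gene with signal, in lists of macrophage genes and of other liver cells, with the number of genes in parentheses and black ticks at the medians. The 10 markers have medians of 0.31 and 0.225, the 8 hepatocyte markers have medians near 0, and Gpnmb lies farthest right at 2.89 in the greater-loss pool.

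Markers of other cells were read the same way, and their part in the ratios above was not tested. The tissue label held: 8 of 9 hepatocyte markers on the array had signal, the other lacked a value on 1 array, and their medians were 0.00 in both pools. Their summed signal was 238103 to 324663 in control and 233083 to 314713 in GALP. The 10 macrophage markers gave 35690.0 to 40507 in control, 44786 to 54790.0 in the greater-loss pool and 44033 to 47832 in the other. Most of the rise in the greater-loss pool was Lyz2, at 19498 and 15286 against 11200.0 and 9740.0 in control on the same arrays. Sinusoidal endothelial markers (10 of 10 with signal) had medians of 0.11 and 0.08 and included Lyve1, an endothelial hyaluronan receptor, called higher in both pools at 0.71 and 0.78, a call lost with normexp and loess at 1.45-fold and 1.36-fold. Stellate cell and fibroblast markers (8 of 10) had medians of 0.22 and 0.17, with the collagen gene Col1a1 called higher in the first pool at 0.83 (1.40-fold and not called with normexp and loess). Summed signals of the endothelial list were 28250.0 to 39107 in control, 29104 to 29253 and 31406 to 35487 in the pools, and those of the stellate list were 26344 to 33679, 31966 to 35390.0 and 23828 to 36882.

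Lymphocyte genes were near background. Of T and NK cell markers 3 of 10 on the array had signal, with Cd3e, Cd3g, Cd8a and Cd4 without, and medians of 0.63 and -0.04. Nkg7, a granule protein of cytotoxic cells, was called higher in the first pool at 0.81 (1.15-fold and not called with normexp and loess). Of B cell and plasma cell markers 3 of 6 had signal. Jchain, the joining chain of secreted antibodies, was called lower in both pools at -1.06 and -1.03, and the B cell antigen gene Ms4a1 in the second at -0.995 (-0.72 in the first). Jchain under normexp and loess stood at 0.756-fold and 0.811-fold and Ms4a1 at 0.907-fold in the second pool, and none of these calls was kept. Over all probes with signal 0.344% were called lower in both pools, 0.974% in the greater-loss pool and 0.955% in the other.

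The summed lymphoid signals stayed low: 198 to 216 in control against 241 to 337 and 175 to 280.0 in the pools for T and NK cells, and 541 to 1072 against 313 to 451 and 373 to 949 for B and plasma cells. The upper ends of 1072 and 949 include a bright Cd79b reading on 1 array, and without Cd79b the sums were 396 to 533 in control, 180.0 to 314 in the greater-loss pool and 185 to 245 in the less-loss pool. Neutrophil markers had signal for 2 of 9, with medians of 0.39 and -0.08 and sums of 1341 to 1654, 1648 to 1771 and 1548 to 1598. Dendritic cell markers had signal for 2 of 8, with medians of 0.06 and -0.01 and sums of 221 to 368, 213 to 285 and 301 to 347. Bile duct markers (4 of 7) had medians of -0.19 and -0.05 and sums of 6863 to 7821, 6114 to 6819 and 8757 to 10554. Most of each sum was Spp1, which is also in the list of monocytes and recruited macrophages. Spp1 read 6568 to 7436 in control, 6503 and 5891 in the greater-loss pool and 10260.0 and 8482 in the other. The keratin gene Krt19 was called lower in the first pool at -0.82 (0.892-fold and not called with normexp and loess). Red blood cell genes (3 of 4) had medians of -0.10 and -0.09 and sums of 100779 to 133427, 100092 to 115023 and 108539 to 115445.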

How the data were processed

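Liver RNA was measured on 4 dual-colour Agilent arrays. Per the file headers, the authors' Feature Extraction software subtracted background and normalized the dyes to give processed intensity values, a log10 ratio of Cy5 over Cy3 and a p-value for each spot. The headers name version 12.0.3.1 and the submitters' processing notes version 11.0.1.1. The deposited log10 ratio is 0 where both intensities had been replaced by a background substitute. A weight loss group is also written on the labels of the control extract, but the methods name only 1 pool of control RNA, which was taken as 1 sample.

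The ratios were put on the log2 scale with GALP over control as the direction. Spots marked as outliers were removed, and spots of 1 probe were averaged, as were the 2 arrays of a pool. For repeated spots the median software p-value was used. A gene was represented by its brightest probe. The pool ratios were tested against 0 with limma 3.58.1 (lmFit, eBayes, 1 residual degree of freedom) in R 4.3.3, with Benjamini-Hochberg adjustment over 41037 probes. The threshold rule was applied strictly, since the source does not say on how many arrays it must hold. The number of arrays limits the precision. Other steps used Python 3.11.15, pandas 2.3.3 and numpy 2.4.6, and the plots matplotlib 3.10.9.

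The named genes are all 10 markers with every probe, and from the other lists every gene with a call in a pool. For the macrophage lists they also include the 2 brightest genes and the 2 with the largest mean ratio. Genes without signal, Lyz1, Il1b, Timd4, Folr2 and Fcna were named for context. The markers and lists were chosen with earlier results of these data known. Alternatives were normexp (offset 50) with loess, outlier spots kept, the deposited series table, centring, the mean over probes, each dye orientation or pool alone, other p and fold rules, and for limma an intensity trend, a signal filter and a random pool block. RefSeq accessions gave the listed symbol for 9 of the 10 brightest probes.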

Additional observations from a re-analysis of the deposited data

Results flagged for a closer look

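In 4 genes of the wider lists, read by the brightest probe, both arrays of one GALP pool lay above control and both arrays of the other lay below it. The difference between the pools was not tested, since each is a single pool. The pool ratio of greater minus less weight loss was 0.81 for C6, 1.43 for Ccl7 (brighter probe), 1.29 for Retnla and -0.55 for Spp1. The less-loss array with GALP in Cy5 gave unusual Ccl7 signals, 249 in GALP and 376 in control. Control read 77.7, 68.7 and 69.2 on the other arrays. With GALP in Cy3 the less-loss pool read 57.0 against 69.2, with a software p-value of 0.507, so the opposition in Ccl7 rests largely on 1 array. C6 gave 0.12 and 0.31 in the greater-loss pool and -0.70 and -0.49 in the other, and Spp1 gave -0.19 and -0.16 and then 0.48 and 0.27. A dimmer Retnla probe did not show the opposition, at -0.54 and -0.08 and then -0.68 and 0.0. It stood above background in 1 of 4 GALP readings and 1 of 4 control readings. No such opposition was seen among the 10 markers.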

How the results depend on the processing

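Normexp with loess left 0 markers called in both pools, 2 in the greater-loss pool and 0 in the less-loss pool. It gave a median over markers of 0.28 for the mean of the pools in place of 0.35, and limma then called 95 probes, Adgre1 among them (adjusted p = 0.0371). limma on the pool ratios called 0 probes, with 2049 higher and 2710 lower at unadjusted p under 0.05. limma called 1 probe among those with signal and 106 with the pool as a random block, in both cases without the brightest probe of any marker. Averaging all probes of a gene gave medians of 0.20 in the greater-loss pool and 0.23 for the mean. With each dye orientation alone, the number called ran from 0 to 1 in both pools and from 0 to 1 in the less-loss pool. With a pool left out no call in both pools can be made. With each dye orientation alone, the median over markers ran from 0.23 to 0.50 in the greater-loss pool and from 0.22 to 0.32 in the other. The median difference between the pools then ran from -0.0205 to 0.0904. For the mean of the pools the median ran from 0.225 to 0.425 over dye orientations and single pools. Other settings went outside these ranges: normexp with loess gave 0.19 in the less-loss pool, and centring gave a difference of -0.031. The causes of these shifts were not tested. The normexp alternative changed the background correction and the dye normalization together and added an offset of 50 to each signal. Settings in which the shift is fixed by construction (single pools) or the values are the same (series table) were left out. In the rest, the ratio of a marker moved by less than the SD of the pools in 50 of 60 results. These 60 still include results that had little or no room to move. Keeping outlier spots changed the ratio of Ccl2 alone, and averaging probes cannot move the 7 markers with 1 probe. Clec4f and Vsig4 changed sign in 4 and 2 of 9 alternatives. Of the 19 genes of the other lists whose brightest probe was called, 5 kept a call under normexp, an alternative added after the values were seen. No paired analysis was possible because the arrays of a pool carry the same extracts and the pools share 1 control.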

Other observations

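A second Ccl7 probe stood above background in 3 of the 4 GALP readings and in 0 of the 4 control readings. Against the background level its signal, averaged over the arrays of a pool, was at least 1.86-fold higher than control in the greater-loss pool. In the other pool, where the brighter Ccl7 probe lay below control, it was at least 1.12-fold higher. No array gave the second probe a software p-value under 0.01, and it met the rule in neither pool. Its readings were dim, and with GALP in Cy3 the less-loss pool read 35.2 against 31.1 in control.

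The array of the less-loss pool with GALP in Cy3 held genes that were over 2 times as bright in both channels as on the other arrays, although the control extract was described as the same pool on all of them. They were noticed after their values were seen. Among the named genes they include probes that met the rule. The brightest Il1rn probe, called in the less-loss pool, read 1084 in control and 2274 in GALP, against 305 to 382 and 418 to 707 on the other arrays. The dimmer Spic probe, called in both pools, read 261 and 475, against 83.5 to 90.5 and 138 to 176. A dim Gpnmb probe that was not called read 266 and 260.4, against under 10 elsewhere. On the remaining array of the less-loss pool the log2 ratios were 0.89 for Il1rn and 0.82 for Spic. Outside the named genes, Cd79b, a chain of the B cell receptor, read 608 and 764, against 136.0 to 162 and 128 to 137, and Gzma, a granzyme of cytotoxic cells, read 326 and 471, against at most 17.2 and at most 32.8. Marco read 2251 in control there, inside the range of the other arrays.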
